A study of Sus scrofa with 8 samples.

Results

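The miR-199 and miR-214 microRNAs (miRNAs) were measured in whole corpora lutea of pigs. The corpus luteum develops from a follicle after ovulation and secretes progesterone. They were chosen by name, as every non-control target of the array named miR-199 or miR-214, whatever its letter, arm or species prefix. This gave 6 of the 686 targets on the array, carried by 13 of its 1683 probes and 120 of its 13720 spots. They were ssc-miR-199a-3p, ssc-miR-199a-5p, ssc-miR-199b-3p, ssc-miR-199b-5p, ssc-miR-214 and hsa-miR-214-5p, the last designed on the human name. Of these, 5 were well above background on all 8 arrays and were tested among 211 targets, and hsa-miR-214-5p was detected on 0 arrays.

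Luteal tissue came from crossbred gilts of 1 herd, 6 to 8 months old. The pregnant group held 4 glands taken on day 14 from gilts inseminated 12 and 24 h after their second estrus was seen, and the cyclic group held 4 glands taken on day 14 of the estrous cycle from gilts that were not inseminated. Total RNA (100 ng) of each gland was labelled with Cy3 and hybridised alone to a 1-colour Agilent miRNA array. Whole glands were used, so steroid-producing cells, fibroblasts, vessels and blood cells were measured together, and a lower level in such RNA does not tell fewer cells of a type from less RNA per cell.

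Each miRNA hairpin yields a 5p and a 3p strand, either of which can be loaded into the silencing complex and repress target mRNAs through its seed. In mouse and human, miR-214 and a miR-199a hairpin are cut from the same long non-coding transcript, which runs antisense within the dynamin gene DNM3, while the other miR-199a hairpin lies in DNM2 and miR-199b in DNM1. The RefSeq gene table of the pig assembly Sscrofa11.1 showed the same neighbourhoods, with MIR214 next to MIR199A-1 inside DNM3, MIR199A-2 inside DNM2 and MIR199B inside DNM1. Because the array files name no genome build, coordinates were not used here. The 3p strands of miR-199a and miR-199b are identical in human, so the entries for them are best read as overlapping measurements and not as separate replicates.

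These miRNAs are typical of mesenchymal cells, among them fibroblasts. In human cells miR-199a-5p represses caveolin-1 in lung fibroblasts and miR-199a-3p represses the growth kinase MTOR. In the late estrous cycle of the pig the corpus luteum approaches regression, when steroid-producing cells are lost and connective tissue remains, whereas in early pregnancy the gland is kept. By stage, the comparison at day 14 therefore set glands expected to be maintained against glands expected to be close to regression. The labels do not give the state of the glands themselves.

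The 75th percentile of intensity over targets detected on all arrays was 189 to 316. On each array 22.8% to 28.8% of spots exceeded background clearly, 0 were saturated, and at least 181 targets were detected. Each array's intensities were divided by its 75th percentile over the targets detected on all arrays, so a log2 scaled signal of 0 equals that percentile. The arrays sat on 3 slides: slide 1 held pregnant replicates 1 and 2 only, slide 2 held cyclic replicates 1 and 2 only, and slide 3 held the remaining arrays, 2 of each group. Slides 2 and 3 shared a scan day, and slide 1 was scanned on another. Cyclic replicate 1 stood apart from its label: over the 166 targets detected on all arrays its mean correlation was 0.986 with the pregnant arrays and 0.954 with the other cyclic arrays. For the other 3 cyclic arrays the mean correlation was 0.943 to 0.962 with the pregnant arrays and 0.969 to 0.976 with their own group. Group differences, spreads and correlations of the members are therefore also given without it.

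All 4 miR-199 entries had lower mean signals in pregnant glands than in cyclic glands, and miR-214 had nearly equal means, but none of the 5 passed the test over all targets. With limma and Benjamini-Hochberg adjustment over the 211 tested targets, 0 of the 5 had an adjusted p under 0.05, against 24 of 211 targets (11.4%) across the array, of which 13 were lower in pregnancy (6.16%). That count over all targets was 81 without cyclic replicate 1 and 7 to 12 without any other single array. The groups overlapped for all 5 entries, and did not overlap for 17.1% of tested targets, or 7.11% counting those lower in pregnancy. At an unadjusted p under 0.05 the count was 1 of 5, against 34.6% of all tested targets. The median difference of the 4 miR-199 entries was −0.48 on the log2 scale, beside 0.01 for all 211 tested targets. Differences below 0 were found for 4 of the 5 entries, and for 49.3% of all tested targets.

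The 3p strand of miR-199a, ssc-miR-199a-3p, had log2 scaled signals of 0.22, 0.32, 0.42 and 0.04 on pregnant replicates 1 to 4, against 0.28, 0.61, 1.30 and 0.95 on cyclic replicates 1 to 4. The pregnant arrays lay close together, 3 of the 4 cyclic arrays lay above all of them, and cyclic replicate 1 fell among them. The means were 0.25 ± 0.16 in pregnant glands and 0.79 ± 0.44 in cyclic glands (SD, n = 4 each), so that the pregnant level was 0.691 of the cyclic level. The difference was −0.53 ± 0.20 (SE), with a 95% interval of −0.97 to −0.10 from the limma fit, and its adjusted p was 0.104. Of the 211 tested targets it ranked 42 by p.

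The 5p strand of miR-199a, ssc-miR-199a-5p, read 0.04, 0.48, 0.24 and 0.45 on the pregnant arrays, against 0.08, 0.52, 1.66 and 1.00 on the cyclic arrays. It had the same order of cyclic arrays, with replicate 3 highest and replicate 1 lowest. Its means were 0.30 ± 0.20 in pregnant glands and 0.81 ± 0.68 in cyclic glands, and the difference of −0.51 ± 0.28 did not pass (limma, adjusted p = 0.226). The strands therefore differed between groups by almost the same amount. Taken within each array, ssc-miR-199a-3p minus ssc-miR-199a-5p was −0.05 ± 0.29 in pregnant glands and −0.03 ± 0.25 in cyclic glands (exact permutation test, 2-sided, p = 0.857).

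For ssc-miR-199b-3p the values were −0.14, −0.14, −0.03 and −0.24 on the pregnant arrays, against −0.35, 0.08, 0.80 and 0.27 on the cyclic arrays. Here cyclic replicate 1 lay below all 4 pregnant arrays and the other 3 cyclic arrays above them. The means were −0.14 ± 0.09 in pregnant glands and 0.20 ± 0.48 in cyclic glands, with a difference of −0.34 ± 0.20 (limma, adjusted p = 0.273). The 5p strand, ssc-miR-199b-5p, had intensities from 23.0 to 91.4 by its brightest probe, well above background on every array. Its log2 scaled signals were −2.19, −3.02, −2.60 and −2.96 on the pregnant arrays, against −3.31, −2.45, −1.42 and −1.79 on the cyclic arrays. Its groups overlapped widely, and the difference of −0.45 ± 0.36 did not pass (limma, adjusted p = 0.421).

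In contrast to miR-199, ssc-miR-214 had signals of −0.91, −0.81, −0.64 and −0.71 on the pregnant arrays, against −1.26, −1.24, −0.40 and −0.60 on the cyclic arrays. The pregnant arrays lay between both slides of the cyclic group, whose replicates 1 and 2 were below all of them and replicates 3 and 4 above. The means were −0.77 ± 0.12 in pregnant glands and −0.87 ± 0.44 in cyclic glands. The difference was 0.11 ± 0.20, with a 95% interval of −0.33 to 0.54 (limma, adjusted p = 0.768), and it had no settled sign: it was −0.02 without cyclic replicate 1, −0.01 without cyclic replicate 2 and −0.18 within slide 3. The other strand, hsa-miR-214-5p, was not well above background on any array. Its intensities were 2.72, 3.59, 2.79 and 2.55 on the pregnant arrays, against 1.56, 4.38, 6.66 and 8.63 on the cyclic arrays, beside array medians of 0.437 to 1.29 for the negative control spots, and no difference was computed.

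**Figure D1:**
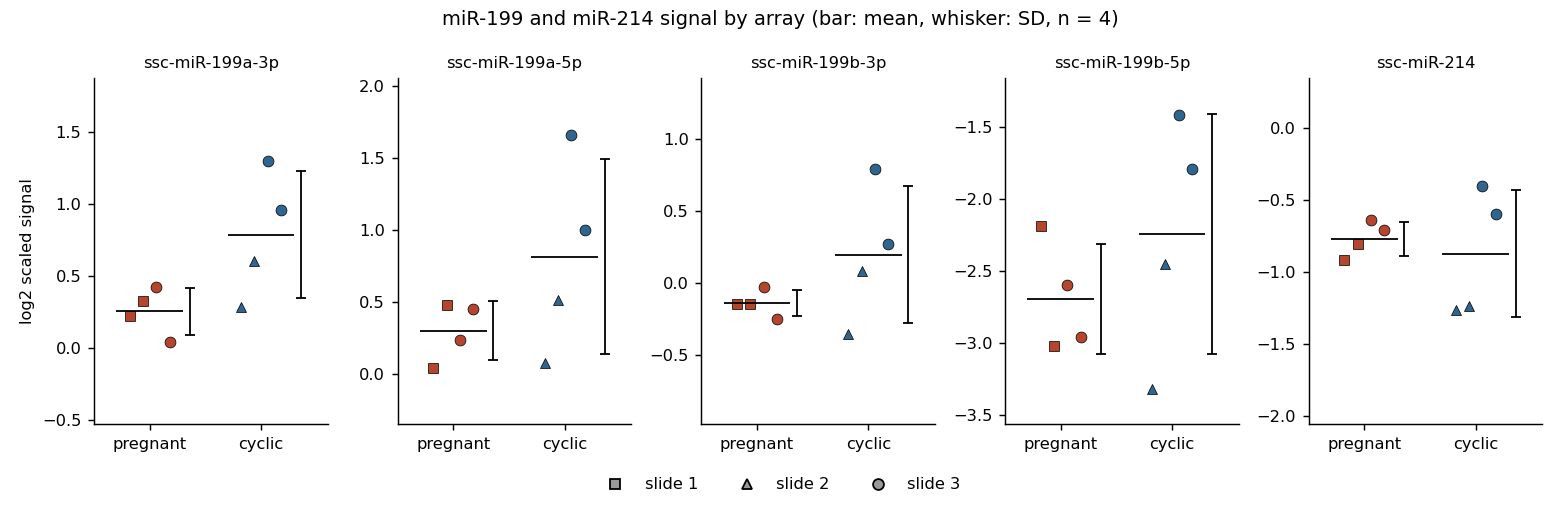
Log2 scaled signal of the 5 detected miR-199 and miR-214 entries on each array (y axis, each panel spanning the same number of log2 units), pregnant arrays left and cyclic arrays right, with marker shape for the slide, a bar at the group mean and a whisker of 1 SD. For ssc-miR-199a-3p the pregnant arrays lie between 0.04 and 0.42 and the cyclic arrays between 0.28 and 1.30, while for ssc-miR-214 the pregnant arrays lie between −0.91 and −0.64, inside the cyclic range of −1.26 to −0.40.

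**Figure D2:**
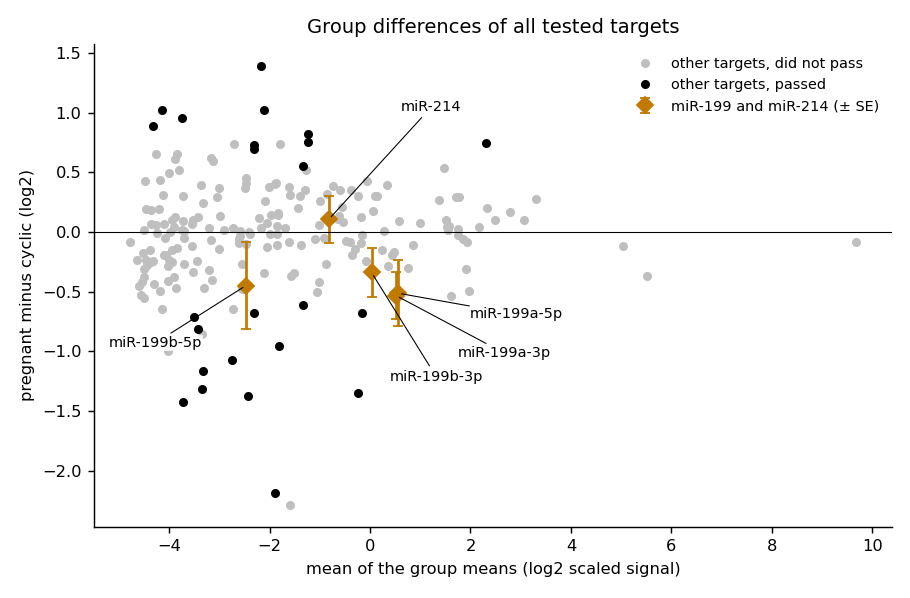
Pregnant minus cyclic difference (y axis, log2) against the mean of the group means (x axis, log2 scaled signal) for the 211 tested targets, with miR-199 and miR-214 as diamonds with their SE. The 4 miR-199 entries lie between −0.53 and −0.34, miR-214 lies at 0.11, and all 5 are among the targets that did not pass.

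The probes of each target gave differences of the same sign. Each target was read by 2 probes, or 3 for ssc-miR-199b-3p, and the difference for ssc-miR-199a-3p was −0.53 and −0.55 by its probes, for ssc-miR-199a-5p −0.51 and −0.57, and for ssc-miR-214 0.11 and 0.09. The probes of ssc-miR-199b-3p gave −0.34, −0.39 and −0.29, and those of ssc-miR-199b-5p −0.45 and −0.37. Of these, the ssc-miR-199b-3p probe at −0.39 was detected on 7 arrays and the ssc-miR-199b-5p probe at −0.37 on 6. Across the 8 arrays the dimmer probes correlated with the brightest probe of their target with r from 0.954 to 0.996, as a description of shared targets. The coefficient of variation between the spots of the brightest probe was 1.70% to 5.29% for ssc-miR-199a-3p and 4.67% to 7.76% for ssc-miR-214.

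Within a single array, miR-199a-3p stood lower relative to miR-214 in every pregnant gland than in any cyclic gland. The value of ssc-miR-199a-3p minus ssc-miR-214 was 1.14, 1.13, 1.07 and 0.75 on pregnant replicates 1 to 4, against 1.54, 1.84, 1.70 and 1.55 on cyclic replicates 1 to 4. The groups did not overlap, and cyclic replicate 1 lay with its own group here. This quantity is free of the scaling between arrays, since any factor applied to a whole array cancels in it. It averaged 1.02 ± 0.18 in pregnant glands and 1.66 ± 0.14 in cyclic glands (SD, n = 4 each), a difference of −0.64. The exact permutation test, 2-sided over the 70 splits of 4 against 4, gave p = 0.0286, the smallest this design can give.

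The other entries were set against miR-214 in the same way. For ssc-miR-199a-5p the value relative to miR-214 was 0.95, 1.28, 0.88 and 1.16 on the pregnant arrays, against 1.34, 1.75, 2.06 and 1.60 on the cyclic arrays, again without overlap (difference −0.62). For ssc-miR-199b-3p it was 0.77, 0.66, 0.62 and 0.47 on the pregnant arrays, against 0.91, 1.32, 1.20 and 0.87 on the cyclic arrays, also without overlap (difference −0.45). For ssc-miR-199b-5p the groups overlapped (difference −0.55, exact permutation p = 0.143). In this respect 3 of the 4 miR-199 entries separated the groups, all lower in pregnancy, beside 19 of the 206 other tested targets (9.22%), whose separations were all lower too. The miR-199 count is not one of separate results, since its 3p entries are overlapping measurements and every entry shares the same miR-214 values. A ratio within an array shows that its signals differed unequally between the groups and does not say which of them changed.

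**Figure D3:**
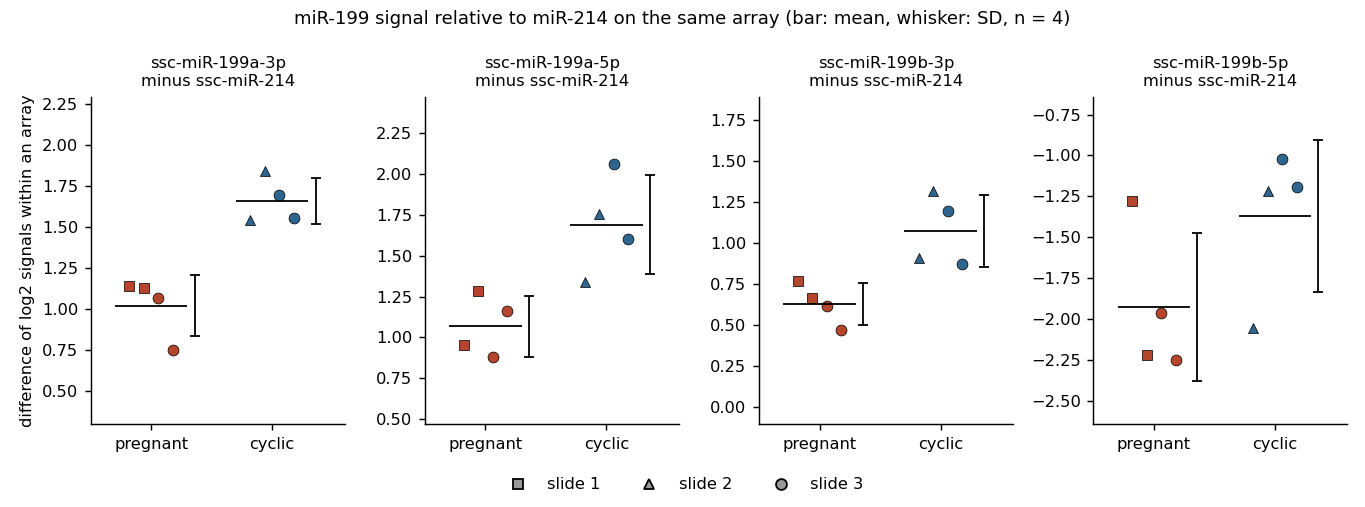
Log2 signal of each miR-199 entry minus that of ssc-miR-214 on the same array (y axis), pregnant arrays left and cyclic arrays right, with marker shape for the slide, a bar at the group mean and a whisker of 1 SD. For ssc-miR-199a-3p the pregnant arrays lie between 0.75 and 1.14 and the cyclic arrays between 1.54 and 1.84, and the groups are also apart for ssc-miR-199a-5p and ssc-miR-199b-3p.

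All 10 pairs among the 5 detected entries were compared in this way. The groups were apart, each with the smallest possible exact permutation p of 0.0286, in 4 pairs: the 3 with miR-214 given above, and ssc-miR-199a-3p minus ssc-miR-199b-3p, at 0.39 ± 0.08 in pregnant glands and 0.59 ± 0.09 in cyclic glands. After Benjamini-Hochberg adjustment of the exact permutation p-values over the 10 pairs, these 4 had p = 0.0714 and none passed the threshold of 0.05. The pair of 3p entries sets overlapping measurements against each other, so a gap of this kind need not be unequal change of separate miRNAs. In the remaining 5 pairs among miR-199 entries the differences ran from −0.17 to 0.11, with exact permutation p from 0.371 to 0.857. With each of the 4 combinations of a probe for ssc-miR-199a-3p and a probe for ssc-miR-214, the difference was between −0.66 and −0.62 and the groups did not overlap.

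The difference of ssc-miR-199a-3p minus ssc-miR-214 ran from −0.68 to −0.55 when single arrays were left out, in groups that could not come to overlap by losing an array. Within slide 3, with 2 arrays a group, it was −0.72, and on the scan day shared by both groups it was −0.75, in designs whose smallest possible exact p is 0.333 and 0.0667. By contrast, ssc-miR-199a-3p alone ran from −0.70 without cyclic replicate 1 to −0.36 without cyclic replicate 3.

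**Figure D4:**
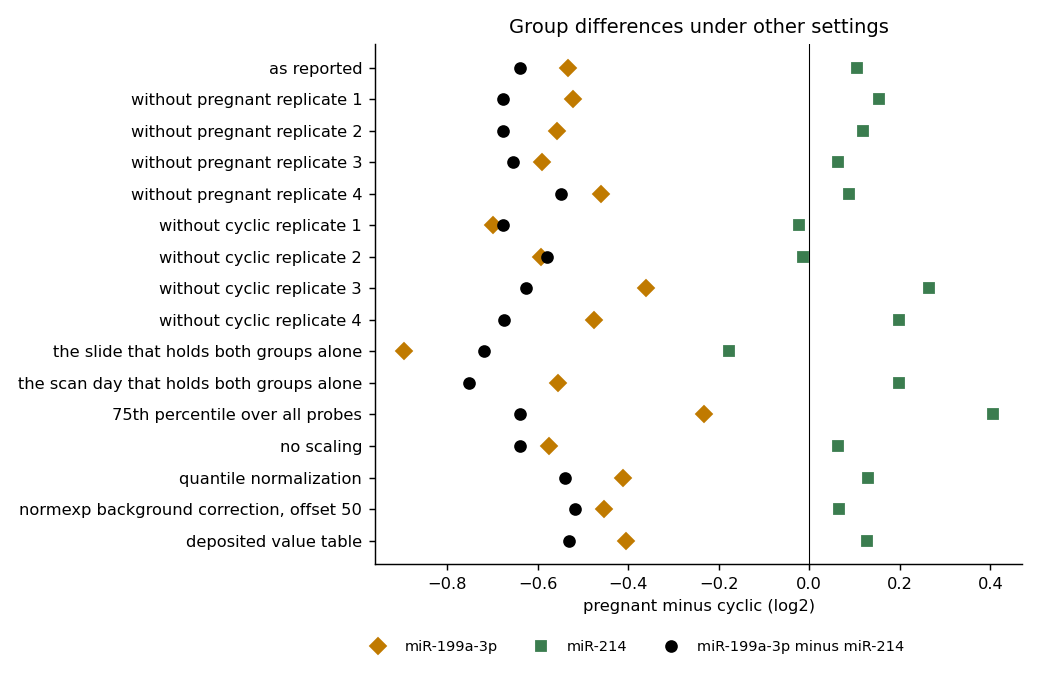
Pregnant minus cyclic difference (x axis, log2) of ssc-miR-199a-3p, of ssc-miR-214 and of ssc-miR-199a-3p minus ssc-miR-214 within arrays, as reported (top) and with single arrays left out, within a slide or scan day, and with other scaling or background correction (y axis). The relative value stays between −0.75 and −0.52 in the settings drawn, ssc-miR-199a-3p lies between −0.89 and −0.23, and ssc-miR-214 between −0.18 and 0.41. A factor applied to a whole array cancels in the relative value, which such scaling therefore cannot move.

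Cyclic replicate 1 and the slides changed the calls for the miR-199 entries. Without cyclic replicate 1, all 4 miR-199 entries were lower in pregnancy after adjustment over all targets: ssc-miR-199a-3p by −0.70 ± 0.16 (limma, adjusted p = 0.00670), ssc-miR-199a-5p by −0.76 ± 0.22 (0.0185), ssc-miR-199b-3p by −0.52 ± 0.16 (0.0221) and ssc-miR-199b-5p by −0.81 ± 0.26 (0.0286). In that fit 81 of 211 targets passed (38.4%), 40 of them lower (19%), and ssc-miR-214 stood at −0.02 ± 0.18 (limma, adjusted p = 0.942). In the same comparison 3 of the 5 entries had groups that did not overlap, beside 41.2% of all tested targets, or 18.5% counting those lower in pregnancy. No other single array changed the call of any member when it was left out. Cyclic replicate 1 was singled out from these same data, and it was the lowest cyclic array for every miR-199 entry. Leaving it out therefore had to widen the miR-199 differences, so the calls without it are not separate support for them.

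Slide 3 carried both groups. There ssc-miR-199a-3p averaged 0.23 in pregnant glands and 1.13 in cyclic glands, ssc-miR-199a-5p averaged 0.34 in pregnant glands and 1.33 in cyclic glands, and ssc-miR-199b-5p averaged −2.78 in pregnant glands and −1.60 in cyclic glands (n = 2 each). With slide as a block, which takes the same contrast, ssc-miR-199a-3p (−0.89 ± 0.21, limma, adjusted p = 0.0233) and ssc-miR-199a-5p (−0.99 ± 0.26, adjusted p = 0.0328) passed, among 27 of 211 targets (12.8%), or 9% counting those lower in pregnancy. On slide 3 alone these and ssc-miR-199b-5p passed (−1.17 ± 0.27, limma, adjusted p = 0.0334), among 29 of 211 targets (13.7%), again 9% counting those lower. With slide as a random block neither strand of miR-199a passed, with ssc-miR-199a-3p at −0.50 (limma, adjusted p = 0.126) and ssc-miR-199a-5p at −0.47 (adjusted p = 0.293), nor did they with scan day as a block, at −0.55 (adjusted p = 0.248) and −0.47 (adjusted p = 0.439). The cyclic group itself differed by slide: its slide 3 arrays exceeded its slide 2 arrays by 0.68 for ssc-miR-199a-3p, 1.03 for ssc-miR-199a-5p and 0.75 for ssc-miR-214, beside a median of 0.02 over all tested targets. The pregnant group's slide 3 arrays differed from its slide 1 arrays by −0.04, 0.08 and 0.18 for the same miRNAs. Slide and gland cannot be told apart within a group, since each gland was on 1 array.

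The cyclic glands varied more among themselves than the pregnant glands in all 5 detected entries. The SD over the cyclic arrays was 2.65 times that over the pregnant arrays for ssc-miR-199a-3p, 3.32 times for ssc-miR-199a-5p, 5.30 times for ssc-miR-199b-3p, 2.17 times for ssc-miR-199b-5p and 3.72 times for ssc-miR-214. This was common on the array: the cyclic SD was the higher one in 73% of tested targets and at least 2 times the pregnant SD in 39.8%. Without cyclic replicate 1 the ratio was 2.10, 2.81 and 4.11 for ssc-miR-199a-3p, ssc-miR-199a-5p and ssc-miR-199b-3p, 3.69 for ssc-miR-214 and 1.37 for ssc-miR-199b-5p. The shares of all tested targets were then 59.7% and 26.5%. The difference in spread was not tested.

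**Figure D5:**
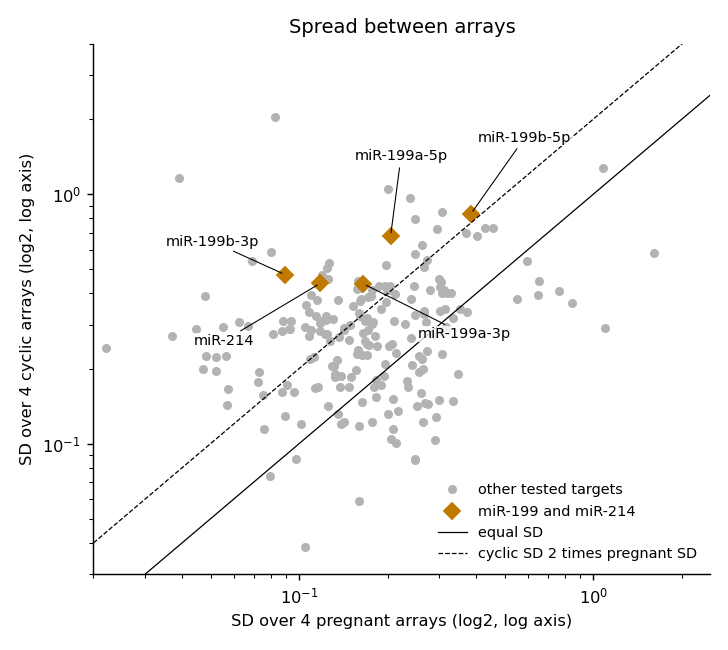
SD over the 4 cyclic arrays (y axis, log2 values on a log axis) against SD over the 4 pregnant arrays (x axis, log2 values on a log axis) for 210 of the 211 tested targets, 1 target with an SD below the axis being left out. All 5 miR-199 and miR-214 entries, drawn as diamonds, lie above the dashed line at which the cyclic SD is 2 times the pregnant SD. Without cyclic replicate 1, which is included here, ssc-miR-199b-5p has a ratio of 1.37.

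Over the 8 arrays the 6 pairs of miR-199 entries correlated with Pearson's r from 0.762 to 0.953 (exact permutation, adjusted p from 0.00620 to 0.0388) and Spearman's rho from 0.548 to 0.929 (adjusted p from 0.0223 to 0.171). Much of this rested on cyclic replicates 3 and 4, without which r ran from −0.10, for ssc-miR-199a-5p with ssc-miR-199b-5p, to 0.769. Without cyclic replicate 1 r ran from 0.723 to 0.972. For the highest pair, ssc-miR-199a-3p correlated with ssc-miR-199b-3p, with r = 0.953 (exact permutation p = 0.000719) and rho = 0.929 (exact permutation p = 0.00223), with p of 0.00620 and 0.0223 after Benjamini-Hochberg adjustment over the 10 pairs. Without the 2 arrays farthest from the median of ssc-miR-199a-3p, cyclic replicates 3 and 4, r was 0.769. The strands ssc-miR-199a-3p and ssc-miR-199a-5p correlated with r = 0.895 (exact permutation p = 0.00585, adjusted 0.0146) and rho = 0.810 (exact permutation p = 0.0218, adjusted 0.0544), but without these 2 arrays r was 0.236, so the relation rested on them. On the scan day shared by both groups (6 arrays), r was 0.953 for the 3p strands of miR-199a and miR-199b and 0.891 for the strands of miR-199a.

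Between ssc-miR-199a-3p and its genomic neighbour ssc-miR-214 the correlation over the 8 arrays did not pass, with r = 0.503 (exact permutation p = 0.196, adjusted 0.196) and rho = 0.548 (exact permutation p = 0.171, adjusted 0.171). It was −0.43 without cyclic replicates 3 and 4, 0.468 without cyclic replicate 1, and 0.507 on the scan day shared by both groups. After each group's mean was subtracted, r was 0.875 over the 8 arrays, beside 0.871 for the strands of miR-199a treated alike, and the correlations were not compared by a test. The cyclic arrays carried most of that spread: cyclic replicates 3 and 4 were high for both miRNAs and cyclic replicates 1 and 2 low for both. With ssc-miR-214, r over the 8 arrays was 0.670 for ssc-miR-199a-5p, 0.638 for ssc-miR-199b-3p and 0.617 for ssc-miR-199b-5p. Without cyclic replicate 1 these were 0.608, 0.531 and 0.446.

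The profiles most like each member were sought among the 206 other tested targets by Pearson's r over the 8 arrays, as a description. For ssc-miR-199a-3p these were ssc-miR-100 (r = 0.927), mmu-miR-138-5p (0.909), hsa-miR-125a-3p (0.909), ssc-miR-9840-3p (0.903) and hsa-miR-134-5p (0.898). Of these, hsa-miR-125a-3p (−1.16) and ssc-miR-9840-3p (−1.37) were lower in pregnancy in the limma test, and ssc-miR-100 stood at −0.37 without passing. On the pregnant arrays mmu-miR-138-5p (mean −4.82) and hsa-miR-134-5p (mean −4.78) lay near the floor of −4.85, so their r rests mainly on the cyclic arrays. The profiles running most opposite were ssc-miR-151-5p (−0.963), ssc-miR-30d (−0.937) and ssc-miR-450a (−0.922). A different set was nearest to ssc-miR-214, led by ssc-miR-125b (0.861) and then, at lower r, by hsa-miR-320c (0.654), ssc-miR-140-3p (0.648), ssc-miR-335 (0.622) and ssc-miR-143-5p (0.607). Least like it were ssc-miR-126-5p (−0.960), hsa-miR-141-3p (−0.829) and ssc-miR-98 (−0.820). The median r over all 206 targets was −0.06 for ssc-miR-199a-3p and −0.03 for ssc-miR-214.

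Of 32 other targets for miRNAs linked to fibrosis and collagen 13 were tested, of which 0 were higher, 1 lower and 12 did not pass (median difference 0.03). Over all tested targets 11.4% passed, and 6.16% were lower. In this list and the shorter lists below, a count of 0 or 1 is therefore near the share over all targets. The lower one was mmu-miR-21a-3p, the passenger strand of the profibrotic miR-21 (−2.18 ± 0.41, limma, adjusted p = 0.0103). The brightest were ssc-miR-21 (−0.37 ± 0.17) and, of the collagen-repressing miR-29 family, ssc-miR-29a (−0.31 ± 0.14) and ssc-miR-29b (−0.54 ± 0.20), none of which passed (limma, adjusted p from 0.104 to 0.143). The list's summed scaled signal was 57.9, 61.6, 59.0 and 52.6 on pregnant replicates 1 to 4, against 58.8, 81.7, 62.8 and 86.0 on cyclic replicates 1 to 4. Of the cyclic arrays 3 lay above all pregnant arrays and replicate 1 among them. These sums are mostly ssc-miR-21, at mean log2 scaled signals of 5.33 in pregnant and 5.70 in cyclic glands. The next brightest, ssc-miR-29a, stood at 1.75 and 2.06. Of the 13 tested members 5 had a difference below 0, beside 49.3% of all tested targets, so the order of the sums is not that of the list as a whole. The sums were not tested. Here and in the lists below they take in every target of a list, with undetected targets mostly at the floor of 0.0346.

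The label of these miRNAs as fibroblast miRNAs was set against other mesenchymal miRNAs. Of 10 targets for miR-140, miR-455, miR-152 and miR-10, 6 were tested and 0 passed (median difference 0.05), among them ssc-miR-10b (0.09 ± 0.11), the cartilage-enriched ssc-miR-140-3p (0.01 ± 0.15) and ssc-miR-152 (0.09 ± 0.13). The others were ssc-miR-140-5p (−0.50 ± 0.20), ssc-miR-455-3p (0.37 ± 0.16) and ssc-miR-455-5p (−0.24 ± 0.19), so the members pointed both ways. Their summed scaled signal was 3.97 to 4.73 on the pregnant arrays and 3.96 to 4.61 on the cyclic arrays. The smooth muscle and pericyte miRNAs miR-143 and miR-145 had 4 of 4 targets tested and 0 passed, the brightest being ssc-miR-143-3p (−0.15 ± 0.15), ssc-miR-145-5p (0.14 ± 0.23) and ssc-miR-145-3p (−0.38 ± 0.32), with sums of 1.28 to 1.70 on the pregnant arrays and 1.25 to 1.87 on the cyclic arrays. The measurements do not place miR-199 or miR-214 in a cell type, and the name fibroblast is used here for what is known of them elsewhere.

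Leukocyte miRNAs gave a count near that over all targets, of which 11.4% passed. Of 16 leukocyte targets (miR-142, miR-223, miR-150, miR-155, miR-146 and miR-342), 8 were tested, 0 were higher and 1 was lower, ssc-miR-155-5p (−0.96 ± 0.25, limma, adjusted p = 0.0317), and the other 8 were detected on no array. Another tested miR-155 entry, bta-miR-155, stood at −0.34 ± 0.20 without passing (limma, adjusted p = 0.269). The myeloid hsa-miR-223-3p stood at −2.29 ± 0.76 without passing (limma, adjusted p = 0.0758), and ssc-miR-146a-5p at −0.01 ± 0.23. Their summed scaled signal was 1.50, 1.37, 1.29 and 1.47 on pregnant replicates 1 to 4, against 1.21, 2.67, 2.39 and 5.50 on cyclic replicates 1 to 4. Cyclic replicate 1 had the lowest sum, as it had the lowest miR-199 signals of its group, and the highest sum was that of cyclic replicate 4 where miR-199 was highest on cyclic replicate 3. The brightest of the list, hsa-miR-223-3p, also had the widest spread over the cyclic arrays (SD 2.03, log2), followed by ssc-miR-142-5p (SD 1.16). The order of the sums is therefore not that of the list as a whole. The part of leukocytes in the miR-199 values was not tested.

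Further marker lists were measured for the other cells of the gland. Endothelial miRNAs (miR-126, miR-221 and miR-222, 4 of 5 targets tested, 0 passed), the brightest being ssc-miR-126-3p (0.16 ± 0.12), ssc-miR-126-5p (−0.08 ± 0.14) and ssc-miR-222 (0.16 ± 0.19), summed to 7.59 to 9.47 on the pregnant arrays and 6.80 to 7.98 on the cyclic arrays, the cyclic arrays with the lowest sums being replicates 3 and 4. Erythroid miRNAs (1 of 4 targets tested, ssc-miR-451 at 0.10 ± 0.62, with both miR-486 entries detected on no array) summed to 1.36 to 6.26 on the pregnant arrays and 1.37 to 7.29 on the cyclic arrays. Of 10 epithelial targets 2 were tested and 0 passed, hsa-miR-141-3p (0.04 ± 0.19) and hsa-miR-203a-3p (−0.45 ± 0.19), and 8 were detected on no array. The epithelial sums were 0.407 to 0.439 on the pregnant arrays and 0.413 to 0.452 on the cyclic arrays. Most of each was the floor value of undetected targets, so their likeness says little. Of the gonad-enriched miR-202 strands, ssc-miR-202-3p was detected on all 8 arrays (0.74 ± 0.33, limma, adjusted p = 0.142) and ssc-miR-202-5p on 5 (−0.28 ± 0.18, adjusted p = 0.300). Their sum was 0.389, 0.626, 0.367 and 0.343 on pregnant replicates 1 to 4, against 0.540, 0.210, 0.222 and 0.239 on cyclic replicates 1 to 4. Here too cyclic replicate 1 lay among the pregnant arrays and the other cyclic arrays below them.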

How the data were processed

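Per the file headers, the authors scanned 8 one-colour Agilent arrays, and Feature Extraction 10.7.3.1 (10.7 per the submitters' processing notes) gave background-subtracted, spatially detrended intensity values per spot. The table the authors deposited holds log2 values centred on each spot's median over the arrays. The deposited columns of cyclic replicates 2 and 4 were recorded as a score because 3 of their cells exceed 100 and cannot be log2 values. Those cells were read as missing and the rest as log2. How the authors scaled the arrays is not given in the sources used here, and the table served only as an alternative.

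Control spots (715) and outlier-marked spots (384 to 453 per array) were left out. The remaining intensity values of each probe (5 to 10 spots) were averaged, then scaled by the array's 75th percentile over targets detected on all arrays (189 to 316). It was then floored at 0.0346 (log2 −4.85) and log2 was taken. Detection required a share of 0.5 or more of a probe's spots to exceed background clearly by the scanner's own test. The brightest probe represented a target, and the 211 targets detected on at least 4 arrays were tested with limma 3.58.1 (lmFit, eBayes with trend, 2-sided, R 4.3.3) at a Benjamini-Hochberg threshold of 0.05. Single values were compared by exact permutation. Figures used Python 3.11.15 and matplotlib 3.10.9. Precision is limited by having 4 arrays a group. The limma p-values set a difference against the spread between arrays, moderated over all tested targets. Gland and slide cannot be told apart in that spread.

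The members, lists and tests were chosen with earlier results of these data known. By rule, every member was described, with the 5 targets most like and the 3 least like ssc-miR-199a-3p and ssc-miR-214, and of each list the members that passed and the 3 brightest; other targets were named after their values were seen. Same-numbered replicates did not pair: the correlations of their deviations from the group means were 0.104, 0.0987, −0.177 and 0.159 for numbers 1 to 4. Mature miRNA sequences were not used here.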

Additional observations from a re-analysis of the deposited data

How the results depend on the processing

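The count of targets that passed was 24 of 211 (11 higher, 13 lower in pregnancy). It was 11 with normexp background correction (offset 50, on median spot and background signals), 62 with scaling to the 75th percentile over all probes (55 higher, 7 lower), 9 without scaling (3 higher, 6 lower), 10 with the scanner's total gene signal, 11 with targets detected on at least 1 array, 11 with the floor at the 5th percentile, and 2 with scan day as a block or within 1 scan day. Quantile normalization gave 14 higher and 9 lower and the deposited values gave 15 higher and 10 lower. Leaving out 1 array gave 7 to 81. Scaling over all probes moved the median of all targets to 0.31. Relative to it, ssc-miR-199a-3p stood at −0.54 and ssc-miR-214 at 0.10.

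Of the miR-199 and miR-214 entries 0 passed as reported, 2 with slide as a block, 3 within slide 3, 0 with slide as a random block, with scan day as a block and within 1 scan day, and 0 to 4 with 1 array left out. With slide as a block or within slide 3, ssc-miR-199a-3p was −0.89 and ssc-miR-199a-5p −0.99, ssc-miR-199b-5p was −1.17 within slide 3, and ssc-miR-214 became −0.18. With 1 array left out, the differences ran from −0.70 to −0.36 for ssc-miR-199a-3p, −0.76 to −0.23 for ssc-miR-199a-5p, −0.52 to −0.14 for ssc-miR-199b-3p, −0.81 to −0.17 for ssc-miR-199b-5p and −0.02 to 0.26 for ssc-miR-214, which was −0.023 without cyclic replicate 1 and −0.01 without cyclic replicate 2. The 4 miR-199 entries kept a negative sign in all 27 settings. Changes of target set or variance model and the replicate block cannot move a difference, so not every setting was a check of its sign. The cause of the shifts between settings was not tested.

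For ssc-miR-199a-3p minus ssc-miR-214 the difference was between −0.75 and −0.52 in all 20 settings, including the other probe of each target, an alternative chosen after seeing the data (−0.64). A factor applied to a whole array cancels in this difference, so the settings that change only such a factor could not move it. The correlation of the pair was −0.43 without the 2 farthest arrays, 0.88 after subtraction of the group means, and 0.15 to 0.66 with 1 array left out. With the replicate block, 27 targets passed, ssc-miR-199a-3p had an adjusted p of 0.0656 in limma, and no call of a member changed; for the pair of miRNAs the block gave −0.64 (exact sign-flip p = 0.125, the smallest that 4 pairs allow).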
